A study of Mus musculus with 22 samples.

Results

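The difference between SCA3 and wild-type mice that was shared by 2 ages was examined in whole blood, as the mean over 9 and 17.5 months of each gene's SCA3 minus wild-type difference. All 22 of 22 blood samples and all 9850 genes of the count table entered, and a gene was counted as shared when it differed in the same direction at both ages. SCA3 mice were hemizygous MJD84.2 transgenics, which carry the full-length human ATXN3 gene with an expanded CAG repeat under its own human promoter. The transgene is thus active throughout the body and not in blood cells alone, and the mouse Atxn3 gene is intact. Controls were wild-type C57BL/6 mice. All mice were male, received no treatment and had been tested on the beam walk. Blood was taken by tail cut at 39 to 42 weeks (9 months) and at 74 to 77 weeks (17.5 months) of age. Globin mRNA was depleted, and polyadenylated RNA was sequenced without regard to strand. At each age there were 6 wild-type and 5 SCA3 samples. The mice numbered 15, with 7 wild-type and 8 SCA3 animals. Of these, 5 wild-type and 2 SCA3 animals gave blood at each age, so that the contrasts at the 2 ages share 7 mice.

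Ataxin-3 is a deubiquitinase of the Josephin family, which trims ubiquitin chains and works with the segregase p97 (Vcp) and with shuttle factors that deliver proteins to the proteasome. Its polyglutamine tract, encoded by the CAG repeat, lies in a protein that also contacts transcriptional coactivators such as Ep300 and Crebbp. Ataxin-3 is made in most cell types, and whole blood mixes many of them. A difference in a bulk sample can lie in the RNA of each cell or in the number of cells of a type, and these cannot be told apart here.

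Levels are given as GC-corrected log2 CPM, a gene's count as a share of its sample's counts on the log2 scale, after removal of that sample's own dependence on GC content. Differences are log2 fold changes of SCA3 over wild-type, with the standard error (SE). Totals ran from 21898928 to 44390286 counts per sample. Library numbers in the labels run group by group, so library order cannot be told apart from genotype and age. Of the markers of each cell type, 13 of 15 for red cell precursors, 9 of 12 for neutrophils, 12 of 12 for T cells, 9 of 10 for B cells and 10 of 10 for platelets were in the table. The main cell types of blood, red cells among them, were thus detected after globin depletion. The RNA integrity number (RIN), which falls as RNA degrades, was lower in SCA3 mice at both ages. The difference was -0.55 at 9 and -0.583 at 17.5 months, and its mean over the ages was -0.567 (two-sided exact permutation test over mice, p = 0.05). GC content of the counted RNA differed by -0.546 percentage points on average over the ages (exact permutation test, p = 0.0357), with -0.0825 at 9 and -1.01 at 17.5 months. With RIN as a covariate 661 genes had an unadjusted p under 0.05 for the shared difference, against 910 in the same 21 samples without it. The plot of RIN, GC content and total counts by sample shows all 3.

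**Figure D1:**
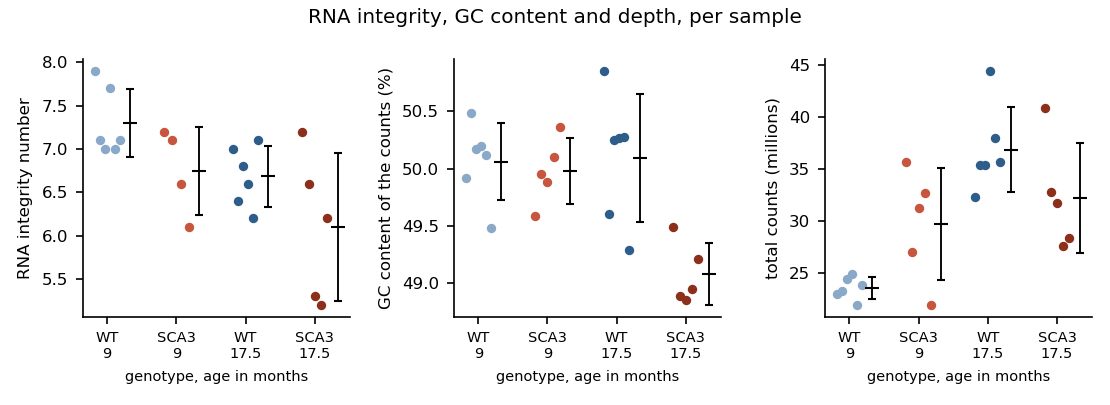
RIN, GC content of the counted RNA (percent) and total counts of each sample, by genotype and age. Points are samples and bars the mean ± SD. RIN was lower in SCA3 mice at both ages, and GC content at 17.5 months averaged 50.09% in wild-type and 49.08% in SCA3 mice.

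Mouse Atxn3 was looked at first, since reads of the transgene that match the mouse gene would add to its counts. The human gene was not part of the reference, so this checks the labels only in part. At 9 months Atxn3 ran from 5.32 to 5.56 GC-corrected log2 CPM in wild-type mice, with a median of 5.43, and was 5.33, 5.58, 5.66, 5.66 and 5.69 in SCA3 mice. Later, at 17.5 months, it ran from 5.20 to 5.43 with a median of 5.30 in wild-type and was 5.28, 5.32, 5.37, 5.40 and 5.47 in SCA3 mice. At 9 months 4 of the 5 SCA3 samples lay above every wild-type sample, whereas at 17.5 months the groups overlapped. The mean over the ages was 0.11 (SE 0.05) higher in SCA3 mice, with an unadjusted p of 0.0467 and an adjusted p of 0.517 in edgeR's quasi-likelihood test. Without GC correction the difference was 0.33 with an adjusted p of 0.0408 in the same edgeR test. With RIN as a covariate it was 0.05 (adjusted p = 0.929 in that test), against 0.09 in the same samples without the covariate.

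No single gene passed the test for the shared difference. With edgeR's quasi-likelihood test and Benjamini-Hochberg adjustment over 9850 genes, 0 genes had an adjusted p under 0.05, and the smallest adjusted p was 0.142. An unadjusted p under 0.05 was reached by 941 genes, which is 9.55% of all genes, 404 higher (4.1%) and 537 lower (5.45%) in SCA3 mice. Of these, 849 (8.62% of all genes) had the same direction at both ages. Opposite differences cancel in the mean, so this agreement follows largely from how the 941 were chosen. The test treated samples of the same mouse as independent, so its SE and p-values leave out the pairing. Other tools gave other counts, with 16 genes called by edgeR's likelihood ratio test (0.162%) and 672 by DESeq2 without GC correction (6.82%). Taken at each age, the quasi-likelihood test called 0 genes at 9 months. There, the unadjusted threshold of 0.05 was met by 669 genes (6.79%), and the likelihood ratio test called 1 (0.0102%). At 17.5 months the quasi-likelihood test called 4 genes (0.0406%) and the likelihood ratio test 120 (1.22%), with 1704 (17.3%) under the unadjusted 0.05. Over all genes, 4294 (43.6%) differed in the same direction at both ages, 1942 higher (19.7%) and 2352 lower (23.9%), and 5556 (56.4%) in opposite directions, in contrasts that share 7 mice. For the difference between the ages, 0 genes had an adjusted p under 0.05 in edgeR's quasi-likelihood test. An unadjusted p under 0.05 was reached there by 1472 genes (14.9%).

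**Figure D2:**
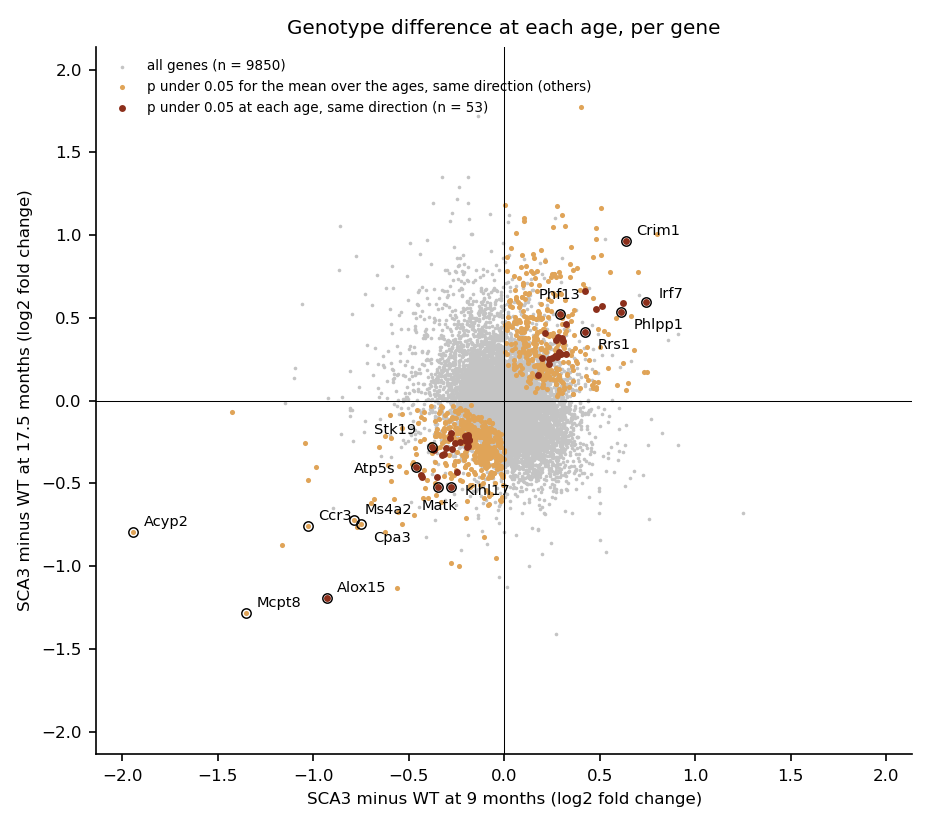
Log2 fold change (SCA3 over wild-type) at 9 months on the x axis and at 17.5 months on the y axis for each of the 9850 genes. The genes that reached an unadjusted p under 0.05 at each age in the same direction (53 genes) are marked, and they lie in the upper right and lower left quadrants. Those quadrants hold 4294 of all genes and the other quadrants 5556.

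The genes with the smallest p among those higher at both ages were Phf13, Cited2, Rrs1, Crim1, Herpud2, Tob1, Kbtbd7, Phlpp1, Hs3st3b1, Gramd3, Reck and Gpr15. They were ranked by these values, so their p-values describe the ranking and support nothing further. None passed the adjusted threshold in edgeR's quasi-likelihood test. Phf13 encodes a PHD finger protein that reads methylated histone H3. At 9 months Phf13 ran from 2.72 to 3.42 in wild-type mice, with a median of 3.24, and was 3.35, 3.36, 3.58, 3.59 and 3.63 in SCA3 mice. Its wild-type range at 17.5 months was 2.69 to 3.15 with a median of 2.91, and it was 3.32, 3.48, 3.49, 3.53 and 3.58 in SCA3 mice. All 10 SCA3 samples lay above the wild-type mean of their age, and at 17.5 months the groups did not overlap. The difference was 0.29 at 9 and 0.53 at 17.5 months, with a mean of 0.41 (SE 0.08, adjusted p = 0.142 in edgeR's quasi-likelihood test). Groups that did not overlap were found for 24 genes (0.244%) at 9 months, 321 genes (3.26%) at 17.5 months and 0 genes at both.

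Rrs1, a regulator of ribosome assembly in the nucleolus, had nearly the same difference at each age. In wild-type mice Rrs1 ran from 3.34 to 3.85 at 9 months, with a median of 3.43, and from 3.31 to 3.78 at 17.5 months, with a median of 3.59. In SCA3 mice it was 3.73, 3.85, 3.88, 3.93 and 4.36 at 9 months and 3.72, 3.90, 4.02, 4.08 and 4.17 at 17.5 months. Every SCA3 sample was above the wild-type mean of its age, and 3 and 4 of the 5 were above all wild-type samples. The difference was 0.42 at 9 and 0.41 at 17.5 months (mean 0.42, SE 0.09, adjusted p = 0.161 in edgeR's quasi-likelihood test).

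Crim1, a transmembrane protein that binds bone morphogenetic proteins, was the largest of the genes higher at both ages that also reached an unadjusted p under 0.05 at each age. In wild-type mice it ran from 2.49 to 3.37 (median 2.85) at 9 months and from 2.21 to 3.48 (median 2.74) at 17.5 months. In SCA3 mice Crim1 was 3.06, 3.18, 3.60, 3.66 and 4.04 at 9 months and 2.91, 3.75, 3.89, 3.97 and 4.07 at 17.5 months. At 17.5 months 1 SCA3 sample, that of mouse 13, stood with the wild-type mice and the other 4 lay above them. The mean difference was 0.80 (SE 0.17, adjusted p = 0.168 in edgeR's quasi-likelihood test). Exons of Crim1 overlap Fez2 on the other strand, and counting without strand cannot separate their reads.

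Phlpp1, a phosphatase that removes an activating phosphate from AKT, was 2.90, 3.96, 4.02, 4.09 and 4.09 in SCA3 mice at 9 months against 2.75 to 3.71 (median 3.23) in wild-type mice. In 17.5-month SCA3 mice it was 3.49, 3.65, 3.69, 4.12 and 4.12 against 2.98 to 3.60 (median 3.28). All SCA3 samples but that of mouse 9 were above the wild-type mean of their age. The difference was 0.61 at 9 and 0.53 at 17.5 months, with a mean of 0.57 (SE 0.14, adjusted p = 0.207 in edgeR's quasi-likelihood test). Tob1, an antiproliferative protein that recruits deadenylases to mRNA, was 0.22 higher at 9 and 0.84 higher at 17.5 months, and in SCA3 mice Herpud2, Tob1, Kbtbd7 and Gramd3 were above the wild-type mean of their age in 10 of 10 samples. Gpr15, a homing receptor of T cells, was 0.51 and 1.16 higher. For Cited2, a regulator of the coactivators Ep300 and Crebbp, the mean of 0.34 came almost wholly from 17.5 months, with 0.06 at 9 and 0.63 at 17.5 months. Cited2 passed at 17.5 months (adjusted p = 0.0196 in edgeR's quasi-likelihood test), as did Hs3st3b1, a heparan sulfate sulfotransferase (0.06 and 1.02, adjusted p = 0.0463). Both calls were lost with RIN as a covariate and without the 2 samples of RIN under 6. They were also lost without the 17.5-month sample of wild-type mouse 1, 5 or 6 or of SCA3 mouse 11, 13 or 14, each left out alone. The mean of Cited2 was 0.21 without GC correction.

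The genes with the smallest p among those lower at both ages included Stk19, Klhl17, Ndufb8, Matk, Atp5s, Lpcat3, Skiv2l, Uqcrc2, Mrps17, Ppp1cc and Strada. Stk19 had the smallest p of all 9850 genes for the mean over the ages. It is on chromosome 17 (GRCm38, chr17:34823993-34836903), next to Skiv2l (chr17:34839226-34850204). In wild-type mice Stk19 ran from 3.96 to 4.31 (median 4.21) at 9 months and from 3.98 to 4.27 (median 4.21) at 17.5 months. In SCA3 mice it was 3.67, 3.67, 3.83, 3.90 and 4.02 at 9 months and 3.70, 3.85, 3.91, 3.95 and 4.07 at 17.5 months. At each age 4 of 5 SCA3 samples were below every wild-type sample, and all 10 were below the wild-type mean of their age. The difference was -0.38 at 9 and -0.28 at 17.5 months, with a mean of -0.33 (SE 0.06, adjusted p = 0.142 in edgeR's quasi-likelihood test). Skiv2l, a helicase of the cytoplasmic exosome, was also lower, by -0.10 at 9 and -0.34 at 17.5 months. Without GC correction the means of Stk19 and Skiv2l were -0.55 and -0.41.

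Klhl17, an adaptor of a cullin ubiquitin ligase, was 3.44, 3.56, 3.61, 3.74 and 3.76 in SCA3 mice at 9 months against a median of 3.94 in wild-type mice. In 17.5-month SCA3 mice it was 3.31, 3.49, 3.52, 3.53 and 3.64 against a median of 4.06, and the groups did not overlap. The mean difference was -0.40 (SE 0.08, adjusted p = 0.142 in edgeR's quasi-likelihood test). Klhl17 had no transcript match for GC content and was given the median GC of all genes. Matk, a kinase that restrains Src-family kinases in blood cells, was below the wild-type mean of its age in 10 of 10 SCA3 samples, by -0.35 at 9 and -0.52 at 17.5 months. Of the others, Strada, a partner of the kinase Lkb1, was lower mainly at 17.5 months (-0.04 and -0.95), with a mean of -0.50 that was -0.26 without GC correction.

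Ndufb8, a subunit of respiratory complex I, was 4.98, 5.08, 5.10, 5.26 and 5.61 in SCA3 mice at 9 months against 5.26 to 5.69 (median 5.59) in wild-type mice. At 17.5 months it was 5.19, 5.22, 5.40, 5.43 and 5.55 against 5.55 to 5.76 (median 5.71). At 9 months 4 of 5 SCA3 samples were below all wild-type samples, and at 17.5 months all 5 were. The difference was -0.32 at 9 and -0.33 at 17.5 months, with a mean of -0.33 (SE 0.07, adjusted p = 0.207 in edgeR's quasi-likelihood test). Ndufb8 shares exon sequence with Gm20538 on the same strand. Atp5s, a factor coupled to the ATP synthase, was lower by -0.46 and -0.40, and Uqcrc2, a core subunit of complex III, by -0.16 and -0.33. Without GC correction the means of Atp5s and Uqcrc2 were -0.20 and -0.08 in place of -0.43 and -0.24. Exons of Uqcrc2 overlap Pdzd9.

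**Figure D3:**
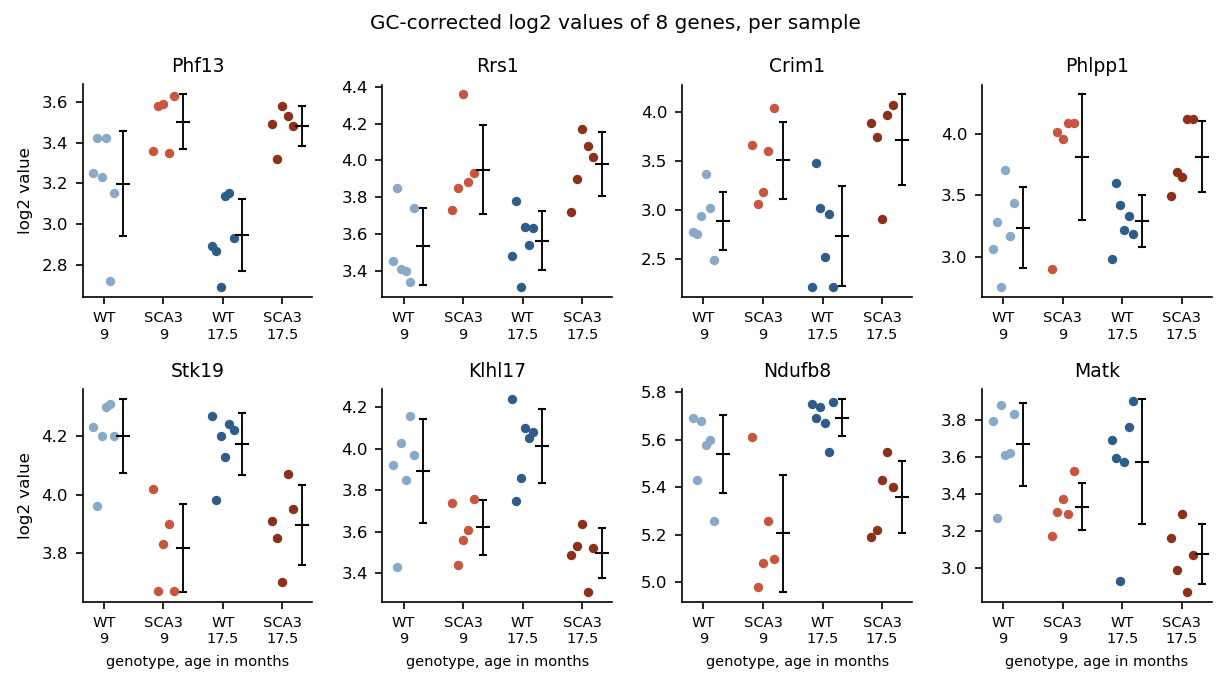
GC-corrected log2 CPM of Phf13, Rrs1, Crim1, Phlpp1, Stk19, Klhl17, Ndufb8 and Matk in each sample, by genotype and age, with the mean ± SD. These were chosen as genes with the smallest p. The first 4 were higher and the last 4 lower in SCA3 mice at both ages, and the groups of each overlapped at 9 months.

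A stricter reading of a shared difference asked for an unadjusted p under 0.05 at each age and the same direction. It was met by 53 genes (0.538%), 26 higher (0.264%) and 27 lower (0.274%), while 65 genes (0.66%) reached it at each age in opposite directions. The 53 were 31 without wild-type mouse 6 and 87 without wild-type mouse 3. Among the 53, chosen after their values were seen, Alox15 had the largest mean difference. Alox15 encodes arachidonate 15-lipoxygenase, an enzyme abundant in eosinophils. It ran from 3.02 to 5.51 (median 5.08) in wild-type mice at 9 months and was 2.66, 3.47, 3.66, 4.63 and 4.67 in SCA3 mice. Its wild-type range at 17.5 months was 3.08 to 5.30 (median 4.65), and it was 2.62, 3.20, 3.62, 3.66 and 3.95 in SCA3 mice. All 10 SCA3 samples were below the wild-type mean of their age, while the groups overlapped at both ages. The difference was -0.93 at 9 and -1.19 at 17.5 months, with a mean of -1.06 (SE 0.30, adjusted p = 0.232 in edgeR's quasi-likelihood test).

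Other members of the 53 were also picked after their values were seen. Ndufa12 and Ndufaf3, a subunit and an assembly factor of complex I, were -0.27 and -0.29, and -0.28 and -0.23, at 9 and 17.5 months. Cxcr3, the receptor of activated T cells for interferon-induced chemokines, was 0.48 and 0.55 higher, and the class I antigen H2-D1 0.31 and 0.36 higher. Without GC correction the means of H2-D1 and Ndufaf3 were 0.20 and -0.42 in place of 0.33 and -0.26. Ubqln2, a shuttle factor that brings ubiquitinated proteins to the proteasome, was 0.28 higher at each age (SE 0.11 at each age). Atxn1l, a relative of ataxin-1, was 0.29 higher at each age. Acyp2, an acylphosphatase, had the lowest mean difference of all genes (-1.37, SE 0.35, adjusted p = 0.207 in edgeR's quasi-likelihood test) but was not among the 53, with -1.94 at 9 and -0.79 at 17.5 months.

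The lists of genes for blood cell types and pathways were read by their counts and medians, against 9.55% of all genes with an unadjusted p under 0.05 and a median difference of -0.01. Counts of members higher or lower below are those at that unadjusted threshold. No list had a member that passed the adjusted threshold of edgeR's quasi-likelihood test. The likelihood ratio test called Ndufb8 and Atp5s of the respiratory chain list, Tob1 of the TGF-beta list and Phf13, Tob1, Reck and Hs3st3b1 of the study's own blood genes. Markers of eosinophils and basophils stood lowest. These granulocytes carry the receptors for IgE, interleukin 5 and eotaxin, and basophils release histamine and the protease Mcpt8. Of the 7 markers measured, 5 (71.4%) had an unadjusted p under 0.05, all lower, and 6 were lower at both ages. The other, Il5ra, a chain of the interleukin 5 receptor, was at 0.009 on average, with opposite directions at the ages. Epx and Prg2, the granule proteins that define eosinophils, were not among the 9850 genes. The 7 measured markers had a median difference of -0.75, with -0.79 at 9 and -0.72 at 17.5 months. GATA factors, which are needed for basophils and eosinophils, bind the letters AGATAA. The 250 bases before the start are shown for Ms4a2 (chr19:11623720-11623969, minus strand), Cpa3 (chr3:20242182-20242431, minus strand) and Fcer1a (chr1:173227230-173227479, minus strand). These were taken from the lower markers whose windows held these letters or their reverse complement. The sequences are from RefSeq (GRCm38.p6), 5′ to 3′ on the strand of the gene, and capitals mark AGATAA or its reverse complement TTATCT.
Ms4a2: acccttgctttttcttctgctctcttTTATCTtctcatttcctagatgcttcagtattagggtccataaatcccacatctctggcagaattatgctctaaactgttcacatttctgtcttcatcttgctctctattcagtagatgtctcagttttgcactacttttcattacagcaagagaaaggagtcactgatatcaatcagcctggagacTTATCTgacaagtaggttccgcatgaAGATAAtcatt
Cpa3: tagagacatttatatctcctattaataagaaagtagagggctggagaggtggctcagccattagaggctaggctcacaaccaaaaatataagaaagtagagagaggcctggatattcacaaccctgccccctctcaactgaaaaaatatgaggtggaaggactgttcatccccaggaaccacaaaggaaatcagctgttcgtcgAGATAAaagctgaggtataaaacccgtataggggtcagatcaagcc
Fcer1a: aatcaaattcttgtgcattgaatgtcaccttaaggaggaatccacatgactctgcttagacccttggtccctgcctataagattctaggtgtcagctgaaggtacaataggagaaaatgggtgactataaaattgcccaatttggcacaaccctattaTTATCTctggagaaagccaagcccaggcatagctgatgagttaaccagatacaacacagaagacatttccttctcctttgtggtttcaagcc
Ms4a2 held 3 such matches and Cpa3 and Fcer1a 1 each. Of the windows of the 7 markers 5 (71.4%) held a match, against 586 of 9734 windows (6.02%) of genes in the count table and 3281 of 32851 windows (9.99%) in the whole RefSeq table. Ccr3, which was also lower, and Il5ra, which was at 0.009, were the others with a match. Mcpt8 and Siglecf, both lower, had none in the window. A match is a description of the letters and not a bound site, and its relation to the differences was not tested.

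Ccr3, the eotaxin receptor, was the most abundant of these markers. At 9 months it ran from 4.31 to 6.69 (median 6.26) in wild-type mice and was 3.60, 4.44, 5.03, 5.60 and 5.92 in SCA3 mice. At 17.5 months it ran from 4.94 to 6.84 (median 5.97) and was 4.16, 4.84, 5.65, 5.69 and 5.78. All 10 SCA3 samples were below the wild-type mean of their age, with wide overlap. The mean difference was -0.89 (SE 0.30, adjusted p = 0.297 in edgeR's quasi-likelihood test), made of -1.03 at 9 and -0.76 at 17.5 months. It was -0.59 without GC correction.

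Mcpt8, a serine protease made by basophils, had the largest difference in the list and the widest spread. In wild-type mice it ran from 1.14 to 5.55 (median 2.86) at 9 months and from 1.00 to 4.93 (median 3.04) at 17.5 months. In SCA3 mice it was 1.82, 2.04, 2.24, 2.47 and 2.66 at 9 months and 1.15, 1.65, 2.04, 2.64 and 3.25 at 17.5 months. The SCA3 samples lay inside the wild-type range at both ages, and the highest values were all wild-type. The mean difference was -1.32 (SE 0.49, adjusted p = 0.369 in edgeR's quasi-likelihood test), against an exact permutation p of 0.253 on the log2 values. It was -0.65 without both samples of wild-type mouse 7.

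Ms4a2 (the IgE receptor beta chain) and Cpa3 (carboxypeptidase A3) were each -0.75 (SE 0.32 for both), and 9 of 10 SCA3 samples were below the wild-type mean for each. Fcer1a and Siglecf were added after their values were seen. Fcer1a, the alpha chain of the IgE receptor, was -0.75, with -1.03 at 9 and -0.48 at 17.5 months, and Siglecf, a receptor of eosinophils, was -0.58 and -0.02. The mean of the 7 markers was 0.552 lower in SCA3 mice on the log2 scale on average over the ages, a difference within the spread of the animals (two-sided exact permutation test, p = 0.116, 0.536 after Benjamini-Hochberg adjustment over 8 cell types). The count of 5 was 1 without GC correction, 2 in limma with or without mouse as a block and 1 without the 9-month sample of wild-type mouse 7, while the median stayed negative, from -0.98 to -0.52, in all alternatives.

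**Figure D4:**
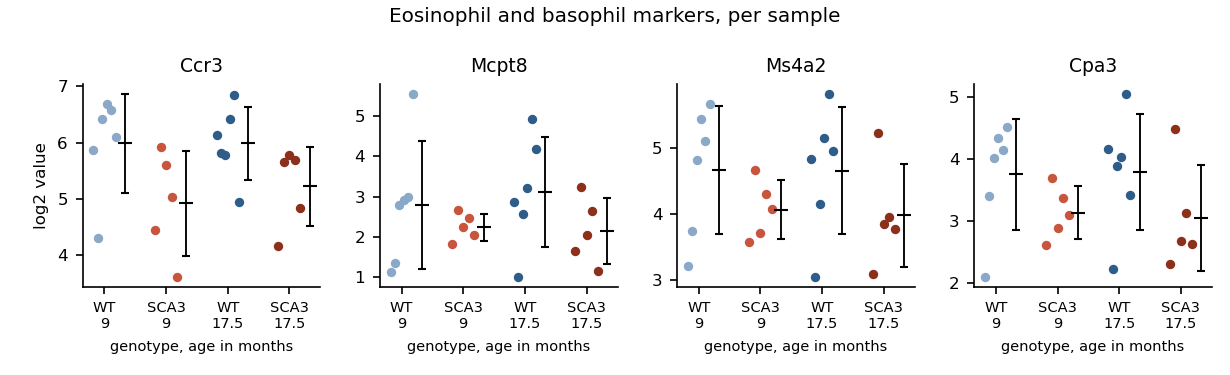
GC-corrected log2 CPM of Ccr3, Mcpt8, Ms4a2 and Cpa3 in each sample, by genotype and age, with the mean ± SD. Means of SCA3 mice were below those of wild-type mice at both ages in each panel, and the samples of the groups overlapped.

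The other cell types differed less, or at 1 age. Of 9 neutrophil markers 3 (33.3%) had an unadjusted p under 0.05, all higher, with a median difference of 0.49 that was 0.10 at 9 and 0.71 at 17.5 months. Ly6g, a surface protein of neutrophils, was 0.40 higher at 9 and 1.78 higher at 17.5 months, and at 17.5 months it was 2.86, 2.87, 2.95, 3.17 and 4.66 in SCA3 mice against 0.76 to 2.47 (median 1.75) in wild-type mice, with no overlap. At 9 months SCA3 values of Ly6g split, with 1.53, 1.53, 4.13, 4.29 and 4.33. S100a8 (calprotectin) and Mmp9 (a gelatinase) were 0.69 and 0.59 higher on average. Without the 9-month sample of SCA3 mouse 14 these were 0.42 and 0.38, and the list median was 0.31 without the 17.5-month sample of SCA3 mouse 8. With mouse as a block, limma gave 0 such markers, and the neutrophil score differed by 0.444 over the ages (exact permutation test, p = 0.134, 0.536 after adjustment over 8 cell types).

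Of 9 NK cell markers 3 (33.3%) had an unadjusted p under 0.05, all higher, with a median of 0.25 (-0.06 at 9 and 0.57 at 17.5 months), which was 0.12 without wild-type mouse 5 or SCA3 mouse 14 and 0.10 with RIN as a covariate. Eomes, a transcription factor of NK and memory CD8 T cells, was 0.41 higher at 9 and 0.70 higher at 17.5 months (mean 0.56, SE 0.14, adjusted p = 0.207 in edgeR's quasi-likelihood test). Nkg7, a protein of cytotoxic granules, was 0.19 and 0.59 higher. Of 12 T cell markers 2 were higher and 1 lower. Cd8a and Cd8b1, which make up the coreceptor of cytotoxic T cells, were 0.39 and 0.51 higher on average, whereas Cd4, the coreceptor of helper T cells, was -0.41 at 9 and -0.48 at 17.5 months. Without SCA3 mouse 15, Cd8a was 0.21 and Cd8b1 0.32 higher. Markers of monocytes (9), B cells (9), platelets (10) and red cell precursors (13) gave 0 members with an unadjusted p under 0.05. The red cell score differed by 0.033 (exact permutation test, p = 0.911).

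Ubb encodes a chain of ubiquitin units that is cut into single ubiquitins. Ubb ran from 9.52 to 10.37 (median 9.92) in wild-type mice at 9 months and from 9.34 to 10.48 (median 9.97) at 17.5 months. In SCA3 mice it was 8.56, 8.95, 9.73, 9.86 and 9.87 at 9 months and 9.18, 9.45, 9.74, 9.84 and 9.88 at 17.5 months. All 10 SCA3 samples were below the wild-type mean of their age, 2 of them below all wild-type samples at 9 months and 1 at 17.5 months. The mean difference of Ubb was -0.43 (SE 0.18, adjusted p = 0.433 in edgeR's quasi-likelihood test), with -0.48 and -0.38 at the ages.

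Among the Josephin deubiquitinases, Josd2 was lower by -0.22 and -0.16 and Josd1 higher by 0.05 and 0.22. Josd2 had an unadjusted p under 0.05 for the mean and Josd1 did not. Without GC correction the means of Josd2 and Josd1 were -0.44 and 0.02 in place of -0.19 and 0.13. Of 20 measured partners of ataxin-3, 1 was higher and 1 lower (10%). The higher was Ep300, an acetyltransferase that ataxin-3 binds, at 0.28 and 0.34, and the lower was Hdac6, a deacetylase that carries ubiquitinated aggregates, at -0.09 and -0.26. Of 22 genes of ubiquitin activation and chain editing only Tnfaip3, the editing enzyme A20, had an unadjusted p under 0.05 (0.20 higher). Of 7 polyglutamine disease genes Atxn3 alone had an unadjusted p under 0.05 (14.3%).

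Of 37 proteasome subunits 6 (16.2%) had an unadjusted p under 0.05, all lower, with 16 lower and 2 higher at both ages and a median of -0.08 at each age. Psmb2, a subunit of the proteasome core, was -0.10 at 9 and -0.24 at 17.5 months. Psma2, Psma3 and Psmd14, which are core and lid subunits, were -0.21, -0.17 and -0.16 on average, but their sign turned without GC correction, where they were 0.06, 0.05 and 0.01. Of 23 heat shock chaperones 0 had an unadjusted p under 0.05. Of 26 genes of folding in the endoplasmic reticulum 1 was higher and 2 lower, with the transcription factor Atf4 at 0.23 and the disulfide isomerase Pdia6 at -0.21, which were near 0 at 9 months (0.00 and 0.07). Of 22 autophagy genes 1 was lower, Atg4b, at -0.11.

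Genes of the mitochondrial respiratory chain and ATP synthase were lower more often than higher. Of 75 genes 15 (20%) had an unadjusted p under 0.05, all lower. At both ages 28 were lower and 0 higher, and 47 differed in opposite directions, against 56.4% of all genes. The median was -0.10, with -0.21 at 9 and -0.01 at 17.5 months, where all genes had 0.01 and -0.03. The lower median thus lay at 9 months. The count of 15 ran from 10 to 21 with single samples or mice left out, and was 10 with RIN as a covariate. Of 75 mitochondrial ribosomal proteins 11 (14.7%) were lower and 0 higher at an unadjusted p under 0.05. The median was -0.03, with -0.09 at 9 and 0.01 at 17.5 months, and 48 differed in opposite directions at the ages. Mrps17, Mrps5 and Mrpl30, subunits of the small and large ribosomal particles, were -0.25, -0.25 and -0.21 on average. Without GC correction Mrps17 was -0.12 and Mrpl30 -0.07. Of 74 cytosolic ribosomal proteins 3 were higher and 7 lower (13.5%). Their median changed sign, from -0.15 at 9 to 0.11 at 17.5 months, and 44 of the 74 differed in opposite directions at the ages. Rps7 and Rps26 were -0.49 and -0.30 on average and lower at both ages, and Rps28 was 0.01 at 9 and 0.78 at 17.5 months, with exons that overlap Kank3.

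Genes of the interferon response, which sense and restrict viruses, were mostly higher, with 17 of 23 higher at both ages and 0 lower at both. Only 2 (8.7%) reached an unadjusted p under 0.05, and the median was 0.23 (0.09 at 9 and 0.24 at 17.5 months). This median was 0.05 without the 9-month sample of SCA3 mouse 9. Irf7, the transcription factor that amplifies interferon production, ran from 6.69 to 8.16 (median 7.74) in wild-type mice at 9 months and was 7.41, 7.91, 7.96, 8.69 and 9.22 in SCA3 mice. At 17.5 months it ran from 7.10 to 8.34 (median 7.54) and was 7.82, 8.10, 8.15, 8.45 and 8.60. At each age 2 SCA3 samples lay above all wild-type samples, and 9 of 10 were above the wild-type mean. The mean difference was 0.67 (SE 0.20, adjusted p = 0.251 in edgeR's quasi-likelihood test), with 0.74 and 0.60 at the ages. Ifit3, an interferon-induced RNA-response protein, was 0.26 and 0.76 higher.

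Of 18 immediate early genes, which respond to signals within minutes, 4 (22.2%) were higher and 0 lower at an unadjusted p under 0.05, and 12 were higher at both ages. Their difference lay at different ages. Jun and Egr3 were 0.47 and 0.64 higher at 9 months against 0.17 and 0.06 at 17.5 months, while Fosl2 and Dusp1 were 0.14 and 0.04 at 9 months against 0.79 and 0.92. The count was 2 in limma with mouse as a block and 1 without GC correction. Of 20 genes of the CREB pathway 14 differed in opposite directions at the ages, and the median was 0.04 (0.11 at 9 and -0.03 at 17.5 months). Of the 20, 4 (20%) were higher at an unadjusted p under 0.05, among them Sik1, a kinase that CREB induces and that limits CREB coactivators, at 0.54 and 0.40, with 10 of 10 SCA3 samples above the wild-type mean of their age. The phosphodiesterase Pde4d was 0.11 and 0.65 and the CREB-family factor Atf1 0.06 and 0.21. Without the 9-month sample of SCA3 mouse 9 the means of Sik1, Fosl2 and Dusp1 were 0.30, 0.26 and 0.27 in place of 0.47, 0.46 and 0.48, and that of Pde4d was 0.22 in place of 0.38 without SCA3 mouse 15.

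Of 19 genes of TGF-beta signalling 5 (26.3%) were higher and 0 lower at an unadjusted p under 0.05, and the median was 0.06. Without regard to p, 8 were higher and 3 lower at both ages. Tob1, Runx2 and Smad7, among the 5, are also blood genes that the study singled out on these samples, so the count is not independent evidence. Runx2 and Smad7 were at 0.05 and 0.07 at 9 months and 0.75 and 0.60 at 17.5 months. Smad7 is an inhibitor and Smad3 a transducer of the pathway, and Smad3 was 0.20 and 0.24 higher. Its mean of 0.22 was 0.13 without SCA3 mouse 15 and 0.12 without GC correction. The mean of Smad7 was 0.17 without GC correction, in place of 0.33. Exons of Runx2 overlap Runx2os1. The count was 4 to 7 with single samples or mice left out.

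The 15 blood genes that the study singled out were chosen on these samples, so their counts are not independent evidence. Of the 15, 9 were higher and 5 lower at an unadjusted p under 0.05 for the mean, but their median was 0.05 at 9 and 0.65 at 17.5 months, and 6 differed in opposite directions at the ages. Lars2, a mitochondrial leucyl-tRNA synthetase, was 0.28 and 1.18 higher, and Reck, an inhibitor of metalloproteinases, 0.25 and 1.05. Il18r1, a chain of the interleukin 18 receptor, was -0.02 at 9 and 0.65 at 17.5 months. Of the 11 measured brain genes of the study, 0 had an unadjusted p under 0.05. Of 12 heme synthesis genes 1 was higher, Cpox at 0.23, and of 11 replication histones 0 differed at that level. Among the 3 globins Hbq1a, a minor globin, was -0.99 at 9 and -0.40 at 17.5 months (mean -0.69, SE 0.18, adjusted p = 0.207 in edgeR's quasi-likelihood test). Of 8 genes that differ between C57BL/6 substrains 1 was lower, Nnt, at -0.17 and -0.15. The plot of gene lists shows the members of each list by their mean difference.

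**Figure D5:**
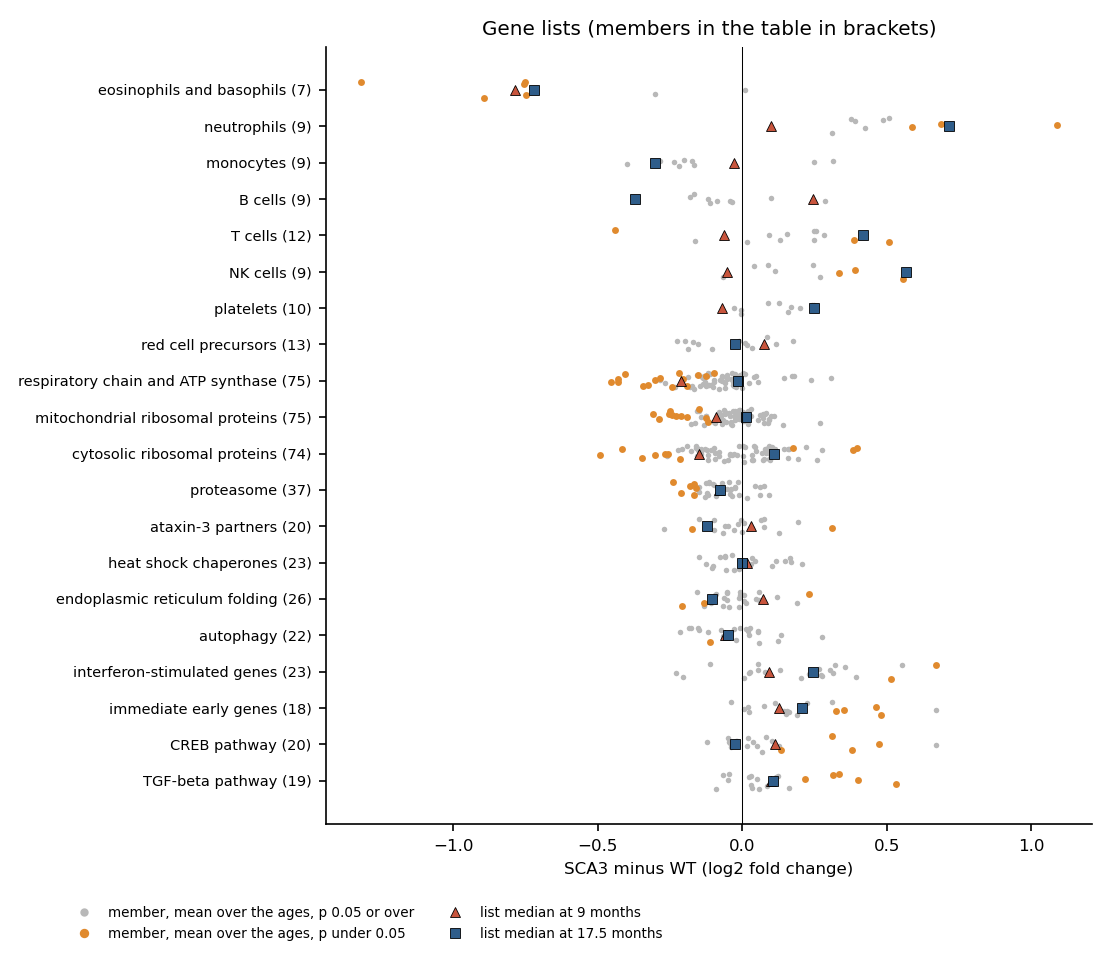
Mean over the ages of the log2 fold change (SCA3 over wild-type) of each member of 20 gene lists, with members at an unadjusted p under 0.05 in orange. Triangles mark the median at 9 months and squares that at 17.5 months. Eosinophil and basophil markers had medians near -0.75 at both ages, whereas those of neutrophil and NK cell markers lay near 0 at 9 months only.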

How the data were processed

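Blood RNA was sequenced for both genotypes at 2 ages. The authors aligned reads to GRCm38 with STAR 2.3.0e and assigned them to RefSeq genes with HTSeq 0.6.1, and the deposited values are whole-number counts with no normalization, for genes with a mean CPM of at least 4. All 22 columns were used and 0 were left out. Groups came from genotype and age in the labels.

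The dependence of counts on GC content was removed sample by sample. A median regression on a natural spline with 5 knots (quantreg 6.1) was fitted to genes whose mean count was 50 or more, and the residuals were quantile normalized, after the CQN package, which was rewritten. Genes without a transcript match (44 of 9850) were given the median GC. The corrections entered edgeR 4.0.16 as offsets, with 1 coefficient for each of 4 groups and no term for the mouse. The mean over the ages of the genotype difference was tested by the robust quasi-likelihood method. Adjusted p-values (Benjamini-Hochberg) covered all genes, and the threshold was 0.05. The study's likelihood ratio test was an alternative, as were limma 3.58.1 and DESeq2 1.42.0. For single values, exact permutation (both sides) ran over 336 labellings of mice, so that a mouse kept its genotype at both ages, and the smallest possible p was 0.00298. Within an age there were 462 labellings. For RIN, known for 21 samples, there were 120 labellings over the ages and 210 at 9 months. R 4.3.3 and Python 3.11.15 (scipy 1.17.1, matplotlib 3.10.9) were used, and the tests were tried on simulated data.

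Mouse numbers pair the samples of 7 animals. After removal of group means, the gene-wise correlation of a mouse's own samples was 0.496, 0.422, 0.49, -0.233 and 0.518 in the wild-type and 0.04 and 0.035 in the SCA3 mice, against a mean of -0.032 for other pairs. In all 50 replicate pairs counts differed beyond sampling noise (chi-square over its degrees of freedom 46.1 to 925), and 0 columns were identical.

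The text names the 12 genes higher and the 12 lower with the smallest p and the same direction at both ages, Atxn3, at most 4 members of each list by p, and all Josephin deubiquitinases, ubiquitin precursors and blood genes of the study. Genes named otherwise are said to be so. Some genes that this rule takes are not reported here. The members, lists and tests were chosen with earlier results of these data known.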

Additional observations from a re-analysis of the deposited data

Results flagged for a closer look

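Among 144 groups of samples examined for a single value far from the others (by Dixon's critical value), 9 held one, where chance gives about 1 in 20, or 7.2. In GC-corrected log2 CPM, Cited2 was 4.699 in the 17.5-month sample of wild-type mouse 2 against 4.799 to 4.852 in the others of its group. Crim1 was 2.914 in the 17.5-month sample of SCA3 mouse 13 (others 3.75 to 4.068), and Phlpp1 was 2.896 in the 9-month sample of SCA3 mouse 9 (others 3.962 to 4.092). Both lie toward wild-type levels. Stk19 was 3.963 in the 9-month sample of wild-type mouse 3 (others 4.196 to 4.307) and Matk was 2.932 in the 17.5-month sample of the same mouse (others 3.573 to 3.904), both toward SCA3 levels. Strada was 5.001 in the 17.5-month sample of SCA3 mouse 8 (others 4.14 to 4.319), which lies apart from the other SCA3 samples of that age.

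The mean of the platelet markers was 9.618 in the 17.5-month sample of wild-type mouse 3 (others 8.434 to 8.819) and 8.117 in that of SCA3 mouse 13 (others 9.157 to 9.514). The mean of the red cell precursor markers was 6.713 in the 9-month sample of SCA3 mouse 14 (others 7.872 to 8.334).

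The genotype difference itself differed between the ages for 4 measures, each by an exact permutation test over mice with no adjustment. For the T cell score the difference at 17.5 months minus that at 9 months was 0.4673 (exact p = 0.0268) and for the NK cell score 0.5264 (exact p = 0.0446), and after Benjamini-Hochberg adjustment over 8 cell types both were 0.159. For total counts it was -10.76 in units of 1000000 counts (exact p = 0.0298), and for GC content of the counted RNA -0.9268 percentage points (exact p = 0.0119).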

How the results depend on the processing

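The count of 0 genes called for the shared difference stayed at 0 with a loess GC curve, correction for GC and length, a minimum of 10 counts, RIN as a covariate, an additive fit of genotype and age, 1 value per mouse and without the 2 samples of RIN under 6 (an alternative chosen after seeing the data). It was 141 without GC correction, 16 with the likelihood ratio test and 672 with DESeq2, and 0 to 4 with a sample or a mouse left out, the 4 without wild-type mouse 3. With mouse as a replicate block in limma it was also 0, with 751 genes at an unadjusted p under 0.05 against 935 in limma without the block. No gene was called with or without the block, so the calls cannot show whether the pairing matters. The correlation between samples of a mouse was 0.302 in the fit with the block. The main edgeR test treated those samples as independent. The 53 genes past 0.05 at each age became 99 with DESeq2, 33 without the samples of RIN under 6, and 31 to 87 with a sample or a mouse left out. At 9 months the count of 0 became 1 with the likelihood ratio test. At 17.5 months the count of 4 became 2082 without GC correction, 2 with the loess curve, 120 with the likelihood ratio test, 2680 with DESeq2, 0 with RIN as a covariate, 0 without the samples of RIN under 6 and 0 to 67 with a sample or a mouse left out, the 67 without SCA3 mouse 8. Genes whose groups did not overlap at either age numbered 0 to 2 with a sample left out. Atxn3 was 0.3304 without GC correction and 0.3309 with DESeq2, both past the adjusted threshold. Signs turned for Psma2 (0.06434 without GC correction, 0.06608 with DESeq2), Psma3 (0.05098 and 0.05188), Psmd14 (0.008809 and 0.009825) and, with DESeq2, Ndufv2 (0.0005665). Of 3780 values of named genes under the alternatives, 3692 kept their direction and stayed uncalled, 81 newly passed the threshold and 7 changed sign. None of these genes was called in the main test, so no call could be lost. Of 90 named genes (without Atxn3), the shared difference moved by over 1.5 times for 35 without GC correction, 2 with RIN as a covariate and 12 with a sample or a mouse left out. The causes were not tested. Replicates varied beyond counting error, and its sources were not separated.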
